A study of Homo sapiens with 6 samples.

Results

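Bone morphogenetic protein (BMP) signalling was examined in LS174T cells through 10 genes: SMAD9, RGMB, ID1, ID2, ID3, ID4, SMAD6, SMAD7, BMP2 and BMP4. LS174T is a human colon adenocarcinoma line that makes mucin. The study cultured it for 48 h with CompE at 250 nM (3 cultures) or with the vehicle DMSO (3 cultures), and measured each culture on 1 Affymetrix Human U133 Plus 2.0 array. CompE is the usual abbreviation of Compound E, a gamma-secretase inhibitor that stops the release of the Notch intracellular domain, although the labels give the short name only. The cells are 1 established line at 1 dose and 1 time.

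Members were taken as every probe set that the platform annotation assigns to 1 of these gene symbols alone, which gave 23 of the 54674 probe sets on the array. 1 further probe set, annotated to ID2 and a second gene together, was not used. All 10 genes were among the 14308 genes tested. SMAD9 and RGMB were chosen on their rise in this same comparison, so their values are a description and carry no test. The other 8 genes were listed by their role, to see whether readouts of BMP signalling moved with SMAD9 and RGMB. Results of this comparison were known when the set was drawn up, so the p-values of the 8 are not independent evidence.

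BMP ligands bind paired type I and type II serine/threonine kinase receptors, and co-receptors of the RGM family strengthen that binding. The active type I receptor phosphorylates SMAD1, SMAD5 or SMAD9, which enter the nucleus with SMAD4 and induce genes such as the ID family, SMAD6 and SMAD7. In the intestine BMP activity is low at the crypt base, where secreted antagonists limit it, and higher towards the surface, where it accompanies differentiation. ID proteins are helix-loop-helix proteins without a DNA-binding region that tie up E proteins, the partners that bHLH activators such as ATOH1 need.

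SMAD9 and RGMB stood close to 2-fold higher in CompE. SMAD9, a signal transducer of the BMP branch, had intensities of 1544, 1521 and 1553 on the CompE arrays, against 757, 774 and 749 on the DMSO arrays. Its fold change was 2.03 (log2 change 1.02, 95% interval 0.91 to 1.13), and the arrays of each group lay within a few percent of each other. RGMB, a membrane-anchored BMP co-receptor, had 4304, 4479 and 4259 in CompE, against 2135, 2189 and 2235 in DMSO. Its fold change was 1.99 (log2 change 0.99, interval 0.87 to 1.11). The groups did not overlap for either gene. As the cultures were measured in bulk, more RNA per cell and more cells of a kind that expresses a gene cannot be told apart.

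The remaining probe sets of these genes pointed the same way. The 3 other probe sets of RGMB gave log2 changes of 1.12, 0.84 and 0.79. The dim second probe set of SMAD9 had 65.8, 60.5 and 68.0 in CompE, against 48.1, 37.9 and 34.4 in DMSO. Its DMSO mean was below the 45.7 that marks background here, so that it was at least 1.42-fold higher in CompE. That level is the 95th percentile of 27 control probe sets for transcripts of Bacillus, absent from human RNA.

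Of the 4 ID genes, ID4, ID1 and ID2 rose, and ID3 did not pass. ID4 had intensities of 607, 532 and 585 in CompE, against 257, 287 and 294 in DMSO. Every CompE array was far above every DMSO array, and the means were 575 ± 38.7 in CompE and 279 ± 19.8 in DMSO (SD, n = 3 each). ID4 rose 2.06-fold (log2 change 1.04 ± 0.08 SE, limma adjusted p = 0.00283). Its other probe sets were dimmer and gave log2 changes of 0.92, 0.87, 0.74 and 0.67. The first 2 of these were called over all probe sets (limma adjusted p = 0.0243 and 0.0325), the third was not (limma adjusted p = 0.169), and the last, with both means below the Bacillus level, did not pass the filter on dim probe sets.

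ID1, the ID gene most often read as an output of BMP signalling, had 3165, 3392 and 2990.3 in CompE, against 2542, 2310.2 and 2494 in DMSO. The groups were separate but closer together than for ID4. ID1 rose 1.30-fold (log2 change 0.38 ± 0.07 SE, limma adjusted p = 0.0347). ID2, which is expressed in many epithelia, had 3633, 3553 and 3916 in CompE and 2887, 3025 and 3033 in DMSO. It rose 1.24-fold (log2 change 0.31 ± 0.06 SE, limma adjusted p = 0.0356). The second probe set of ID2, of a type that can also capture related transcripts, gave 0.38 (limma adjusted p = 0.057 over all probe sets).

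ID3 was the brightest member, at 5864, 6186 and 5714 in CompE against 5057, 4899 and 5098 in DMSO. All 3 CompE arrays exceeded all 3 DMSO arrays, yet ID3 did not pass (1.18-fold, 95% interval 1.08 to 1.29, limma adjusted p = 0.0556). The interval of the ID4 log2 change, 0.84 to 1.24, lay above those of ID1 (0.21 to 0.55), ID2 (0.17 to 0.45) and ID3 (0.11 to 0.37), though the difference between ID genes was not tested.

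The calls of ID1 and ID2 ended whichever array was left out. Without 1 array the limma adjusted p lay between 0.0558 and 0.115 for ID1 and between 0.0728 and 0.112 for ID2, while the call of ID4 held in all 6 of these fits (limma adjusted p up to 0.0219). The bacterial hybridisation controls of the arrays were brighter in CompE, with mean log2 intensities of 11.76, 11.83 and 11.69, against 11.63, 11.61 and 11.62 in DMSO. When each array was centred on them, the log2 changes became 0.90 for ID4, 0.24 for ID1 (limma adjusted p = 0.0479), 0.17 for ID2 (limma adjusted p = 0.224) and 0.096 for ID3, beside -0.12 for the median of all genes. The part of this shift in the results was not tested otherwise.

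**Figure D1:**
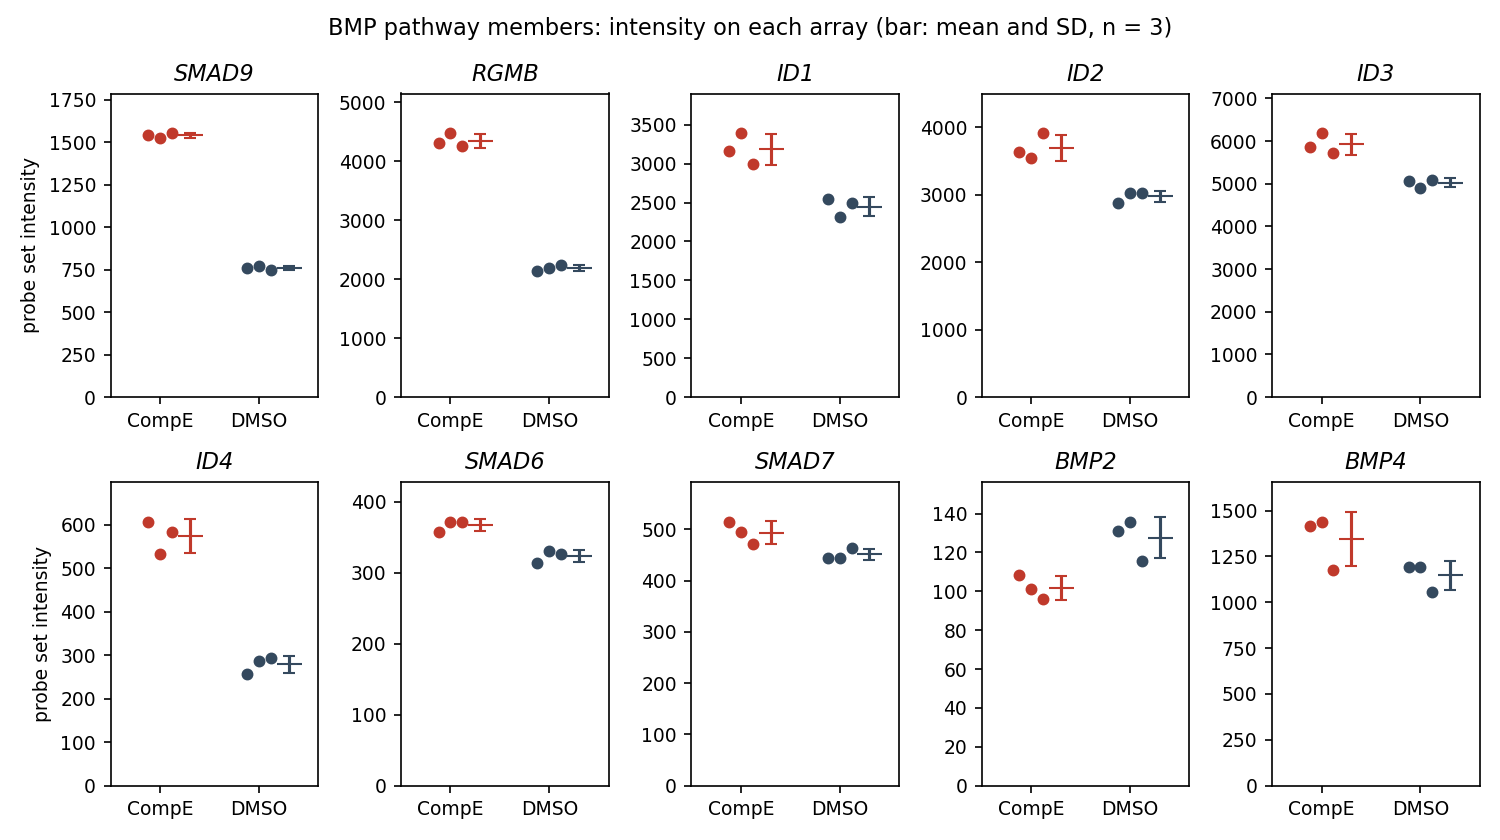
Intensity (linear scale, from 0) of the brightest probe set of each gene on the 3 CompE and 3 DMSO arrays, as points, with a bar for the mean and SD. SMAD9, RGMB and ID4 stand about 2-fold higher in CompE, ID1, ID2 and ID3 differ by less, BMP2 is lower in CompE, and BMP4 overlaps between the groups.

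The inhibitory SMADs, which BMP signalling induces and which act back on its receptors, were not called. SMAD6, which acts mainly on the BMP branch, had 358, 372 and 372 in CompE, against 314, 331 and 327 in DMSO. The groups did not overlap, but the 1.13-fold difference (95% interval 1.04 to 1.23) did not pass (limma adjusted p = 0.087). The other 3 probe sets of SMAD6 were below 100 on every array and overlapped between the groups, with log2 differences of 0.27, -0.14 and -0.54.

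SMAD7, which restrains BMP and TGF-beta receptors alike, had 515, 495 and 471 in CompE, against 445, 444 and 464 in DMSO. The lowest CompE array was close to the highest DMSO array. The difference was 1.09-fold (95% interval 0.996 to 1.20, limma adjusted p = 0.219). Centred on the hybridisation controls, SMAD6 and SMAD7 differed by 0.040 and -0.013 on the log2 scale, so that the direction of SMAD7 depended on the scaling.

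The 2 ligand genes among the members differed in sign and neither passed. BMP2 had 108, 101 and 96.0 in CompE, against 131, 136 and 116 in DMSO. Its log2 difference was -0.32 (95% interval -0.53 to -0.12, limma adjusted p = 0.0787), and all CompE arrays were lower than all DMSO arrays. The second probe set of BMP2 had means of 40.4 ± 4.74 in CompE, under the Bacillus level, and 61.5 ± 3.80 in DMSO (SD, n = 3 each). It was at least 1.35-fold lower in CompE, against that level (limma adjusted p = 0.0376 over all probe sets).

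BMP4, the more strongly detected ligand gene, had 1418, 1440 and 1176 in CompE and 1194, 1190.2 and 1056 in DMSO. CompE replicate 3 lay within the DMSO range. The difference was 1.17-fold (95% interval 0.985 to 1.39, limma adjusted p = 0.237).

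Over the 8 genes listed by role, 3 were called higher (ID1, ID2 and ID4) at an adjusted p under 0.05, beside 4.56% of all genes tested. In the limma fit 0 of the 8 were called lower, beside 2.57% of all genes, although BMP2 was lower at an unadjusted p under 0.05. Over all genes, 653 were called higher and 368 lower, which is 64.0% higher. Centring on the hybridisation controls gave 340 higher and 1552 lower, or 18.0% higher. The 8 genes had 15 probe sets past the filter, of which 10 had all CompE arrays above all DMSO arrays, beside 16.6% of all probe sets past the filter. Both BMP2 probe sets had all CompE arrays below all DMSO arrays. The share of all probe sets in that direction was not counted, so nothing is read from it. Of the 10, 8 belong to ID genes, and probe sets of 1 gene are not separate observations.

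**Figure D2:**
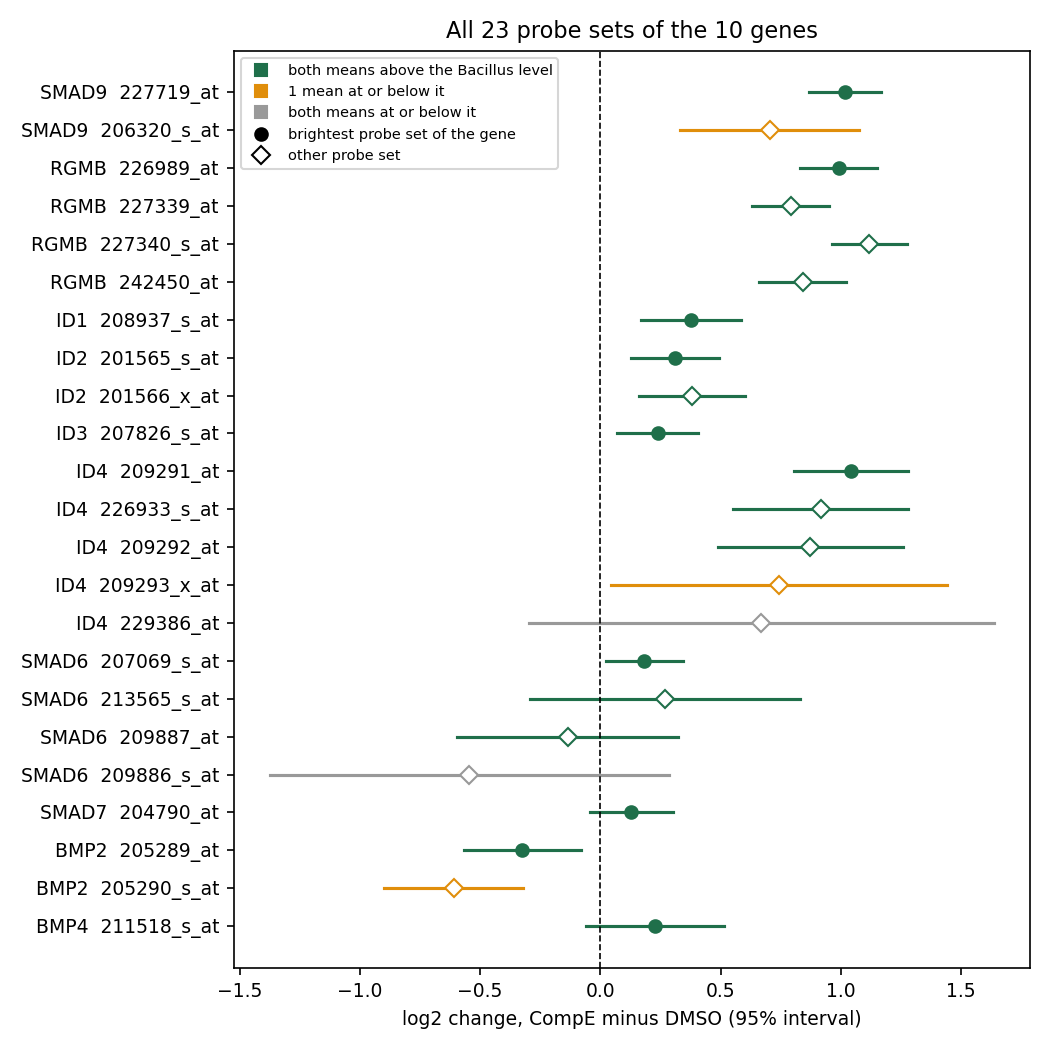
Log2 change, CompE minus DMSO, with its 95% interval for all 23 probe sets of the 10 genes, from a fit over all probe sets with no filter on dim ones. The probe sets of SMAD9, RGMB and ID4 all lie to the right of 0, although the interval of the dimmest ID4 probe set reaches below it, and both BMP2 probe sets lie to the left.

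The promoters of SMAD9, ID1, ID4 and SMAD6 are shown because these genes are the transducer, the classical output, the ID gene with the largest change and the feedback inhibitor. They come from RefSeq (GRCh38.p14) and run from 250 bases before the annotated start to 50 bases after it, 5′ to 3′ on the strand of the gene. Capitals mark every match, on either strand, to any of 5 motifs. These are GGCGCC, a GC-rich site of BMP SMADs, then CAGAC, a short site of SMAD4 and SMAD3, and GTCTAGAC, the palindromic SMAD site. The others are GTGGGAA, a site of the Notch effector RBPJ, and CACNAG, the N box of HES repressors. GTCTAGAC holds no CAGAC or GTCTG, and no marked matches overlap. SMAD9 lies at chr13:36920189-36920488 (minus strand), ID1 at chr20:31605039-31605338 (plus), ID4 at chr6:19837120-19837419 (plus) and SMAD6 at chr15:66701986-66702285 (plus).
SMAD9: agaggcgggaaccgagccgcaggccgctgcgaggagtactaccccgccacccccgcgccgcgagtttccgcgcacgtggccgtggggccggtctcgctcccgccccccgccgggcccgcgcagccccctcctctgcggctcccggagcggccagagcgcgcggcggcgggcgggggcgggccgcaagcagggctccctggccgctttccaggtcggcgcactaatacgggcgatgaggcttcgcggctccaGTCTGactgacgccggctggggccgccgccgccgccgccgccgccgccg
ID1: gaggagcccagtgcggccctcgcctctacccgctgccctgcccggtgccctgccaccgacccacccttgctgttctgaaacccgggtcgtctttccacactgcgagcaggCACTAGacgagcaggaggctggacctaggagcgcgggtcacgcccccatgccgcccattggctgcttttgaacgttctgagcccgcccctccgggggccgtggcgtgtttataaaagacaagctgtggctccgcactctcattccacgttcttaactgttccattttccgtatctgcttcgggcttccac
ID4: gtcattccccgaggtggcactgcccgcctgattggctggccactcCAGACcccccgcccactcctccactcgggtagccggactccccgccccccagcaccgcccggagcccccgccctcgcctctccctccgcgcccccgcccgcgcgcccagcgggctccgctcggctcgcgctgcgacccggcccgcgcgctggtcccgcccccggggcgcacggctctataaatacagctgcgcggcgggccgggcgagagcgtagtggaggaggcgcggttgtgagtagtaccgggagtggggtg
SMAD6: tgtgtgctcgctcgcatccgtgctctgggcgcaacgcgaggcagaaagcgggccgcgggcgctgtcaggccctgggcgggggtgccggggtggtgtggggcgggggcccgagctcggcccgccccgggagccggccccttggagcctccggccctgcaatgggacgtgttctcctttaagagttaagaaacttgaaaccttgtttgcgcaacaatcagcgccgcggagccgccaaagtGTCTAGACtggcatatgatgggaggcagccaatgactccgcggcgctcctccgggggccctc

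SMAD9 had 1 CAGAC match, on the opposite strand 1 base after the start, and ID4 had 1 that begins 205 bases before the start. CAGAC occurs in 45.3% of all 35116 promoter windows of the same length. SMAD6 held GTCTAGAC, beginning 12 bases before the start, a motif found in 0.202% of windows. The ID1 window had a CACNAG match, 140 bases before the start, and that motif occurs in 38% of windows. Over the 15 windows of the 9 members with an entry, CAGAC was in 8, CACNAG in 3 and GTCTAGAC in 1. GTGGGAA, in 6.25% of all windows, was in 0 of the 15, and GGCGCC, in 19.2%, was in 1, of BMP4. A match says only that these letters are present in the window.

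The rest of the pathway was taken from lists of genes by role, 75 further genes, of which 49 were tested. Of these 49, 5 were called higher and 1 lower, beside the 4.56% and 2.57% of all genes tested. At an unadjusted limma p under 0.05 were 20 of the 49, in both directions, beside 24.5% of all genes. The median log2 change of the 49 was 0.11, against 0.02 over all genes tested. The other genes were mostly too dim: 22 had probe sets of their own that did not pass the filter.

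BMPR2 was the only gene called among 7 receptor and co-receptor genes tested besides RGMB, beside 4.56% called higher over all genes. At an unadjusted limma p under 0.05 were 2 of the 7, beside 24.5% of all genes. The set is not complete: BMPR1A had no probe set annotated to it alone, and ACVRL1, HJV and ENG did not pass the filter. BMPR2, the main type II receptor of BMPs, averaged 213 ± 7.73 in CompE and 156 ± 5.41 in DMSO (SD, n = 3 each), a 1.37-fold rise (limma adjusted p = 0.0114). The 4 other BMPR2 probe sets past the filter were between 46.0 and 64.9 in group means and gave log2 differences of -0.17 to 0.09. With the mean of its probe sets past the filter BMPR2 was not called (log2 difference 0.06, limma adjusted p = 0.709), nor was it without CompE replicate 1, DMSO replicate 2 or DMSO replicate 3 (limma adjusted p 0.0531 to 0.0558).

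None of the 3 signal transducers tested beside SMAD9 was called. SMAD4, the common partner, averaged 752 ± 22.9 in CompE and 670 ± 36.0 in DMSO (SD, n = 3 each, log2 difference 0.17, limma adjusted p = 0.161). SMAD1 and SMAD5, the other BMP transducers, are named for their role after their values were seen. SMAD1 averaged 865 ± 31.0 in CompE and 859 ± 20.7 in DMSO, with a log2 difference of 0.01 (interval -0.12 to 0.14). SMAD5 averaged 604 ± 16.3 in CompE and 558 ± 45.0 in DMSO, with a log2 difference of 0.12 (interval -0.06 to 0.29). In the limma fit 0 of these 3 passed, beside 4.56% called higher and 2.57% lower over all genes. SMAD4 alone of the 3 was at an unadjusted p under 0.05, as 24.5% of all genes were.

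Over all genes 4.56% were called higher, 2.57% lower, and 24.5% were at an unadjusted limma p under 0.05. Among ligands other than BMP2 and BMP4, 0 of 6 tested were called by limma, and 1 was at that unadjusted p. That gene was BMP8B, at 152 ± 1.79 in CompE and 136 ± 4.01 in DMSO (SD, n = 3 each, limma adjusted p = 0.116). Its direction depended on the probe set and setting: a dimmer probe set, below the Bacillus level in both groups, had 27.0 ± 6.80 in CompE and 42.8 ± 3.40 in DMSO, the mean over its probe sets gave a log2 difference of -0.13, and centring on the hybridisation controls gave 0.013. Secreted antagonists also had 0 of 5 called by limma, with 2 at an unadjusted p under 0.05 (24.5% of all genes were), both lower in CompE. They were NBL1, a DAN-family antagonist (log2 difference -0.26, limma adjusted p = 0.0784), and GREM1, which encodes gremlin and is named after its values were seen (log2 difference -0.16, limma adjusted p = 0.186).

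The wider set of BMP-induced genes gave 2 rises among the 6 tested that are not members, beside 4.56% of all genes. ATOH8, a bHLH gene induced by BMP in several cell types, had 116 ± 15.9 in CompE and 55.8 ± 5.98 in DMSO (SD, n = 3 each), a 2.08-fold rise (log2 change 1.05, limma adjusted p = 0.0109). Its second probe set past the filter gave 0.25 and was not called (limma adjusted p = 0.461). With any 1 CompE array left out that probe set became the brighter, and the call ended (limma adjusted p 0.317 to 0.691). MSX1, a homeobox gene, averaged 138 ± 7.22 in CompE and 103 ± 3.42 in DMSO (SD, n = 3 each), a log2 change of 0.43 (limma adjusted p = 0.0165). Its dimmer probe set, under the Bacillus level in both groups, gave -0.28, and the mean of the pair was not called (limma adjusted p = 0.679). The call of MSX1 also ended without CompE replicate 1 or any DMSO array (limma adjusted p 0.0596 to 0.0774) and when centred on the hybridisation controls (limma adjusted p = 0.0787).

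BAMBI, a decoy receptor gene that BMP also induces, is named after its values were seen because it had the opposite sign. It averaged 226 ± 14.1 in CompE and 270 ± 16.2 in DMSO (SD, n = 3 each), a log2 difference of -0.25 without a call (limma adjusted p = 0.102). The 6 genes had a median log2 change of 0.09 and ranged from -0.25 to 1.05.

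Of 10 intracellular inhibitors besides SMAD6 and SMAD7, 1 rose, 0 fell in the limma fit and 9 were not called. Over all genes 4.56% were called higher, 2.57% lower, and 24.5% were at an unadjusted p under 0.05. At that unadjusted p were 4 of the 10: SKIL, higher, and BAMBI, CTDSP1 and PPM1A, lower (log2 differences -0.25, -0.18 and -0.14). BAMBI is counted in this list and among the BMP-induced genes, and CTDSP1 and PPM1A are named after their values were seen. SKIL, a corepressor of SMAD complexes, rose by 0.27 on the log2 scale (408 ± 11.5 in CompE and 339 ± 13.2 in DMSO, SD, n = 3 each, limma adjusted p = 0.0416). Its call ended whichever array was left out (limma adjusted p 0.0887 to 0.125) and when centred on the hybridisation controls (limma adjusted p = 0.289). Over all 16 alternatives SKIL was called in 4. Both tested E protein genes, TCF3 and TCF12, were called in neither direction by limma, though both were higher at an unadjusted p under 0.05. TCF3 gave a log2 difference of 0.18 (limma adjusted p = 0.113). Another bright probe set of TCF3, at 1452 in CompE and 1139.9 in DMSO, was called higher over all probe sets (log2 change 0.35, limma adjusted p = 0.0236). It is named after its values were seen. No other TCF3 probe set past the filter was called over all probe sets (limma adjusted p 0.157 to 0.942). The mean of those past the filter was not called (log2 difference 0.11, limma adjusted p = 0.461).

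The TGF-beta and activin branch, which signals through SMAD2 and SMAD3, had 1 gene called higher and 1 lower of 11 tested. Over all genes 4.56% were called higher and 2.57% lower. At an unadjusted limma p under 0.05 were 6 of the 11, in both directions, beside 24.5% of all genes. TGFBI, a matrix protein gene that TGF-beta induces, averaged 1712 ± 93.9 in CompE and 846 ± 39.3 in DMSO (SD, n = 3 each), a 2.02-fold rise (limma adjusted p = 0.00194). CCN2, a matricellular protein gene also induced by TGF-beta, was called lower, with 30.1 ± 2.70 in CompE, under the Bacillus level, and 50.4 ± 5.77 in DMSO (limma adjusted p = 0.0194). Its fall was at least 1.10-fold against that level. Without CompE replicate 1 or 3, or DMSO replicate 2 or 3, CCN2 was not called (limma adjusted p 0.0545 to 0.0752).

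**Figure D3:**
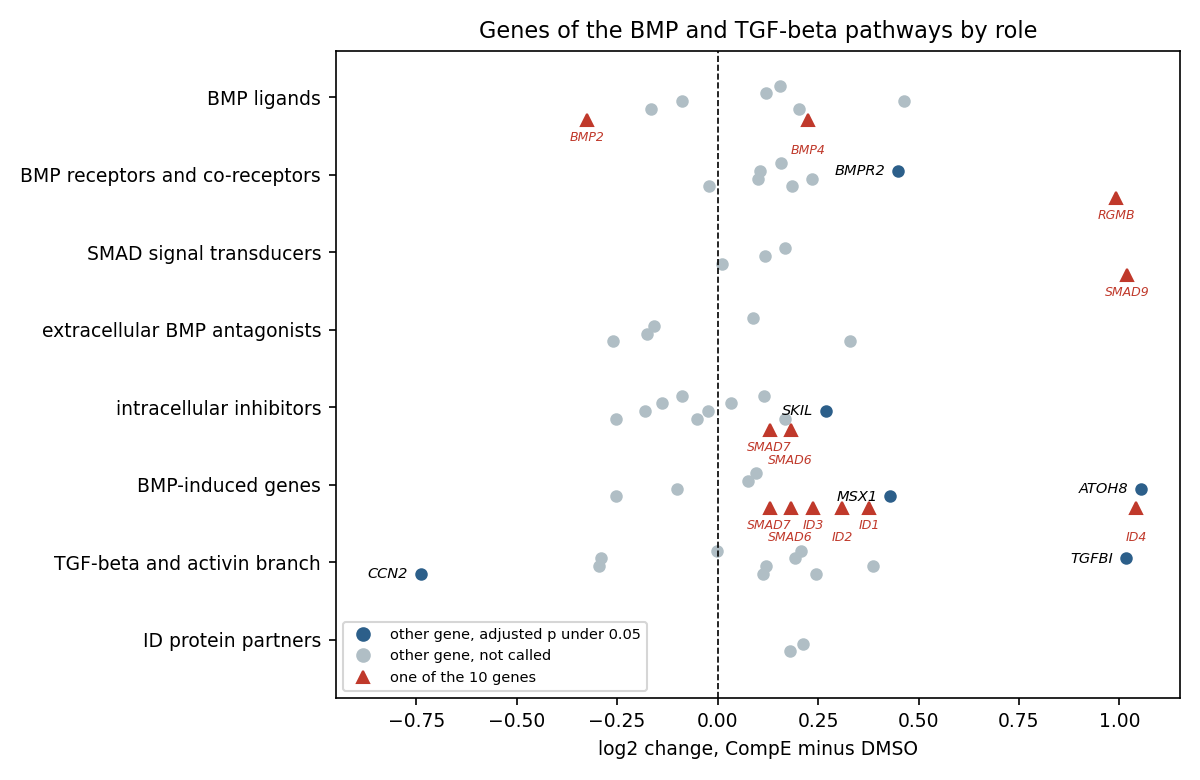
Log2 change, CompE minus DMSO, of every tested gene of the BMP and TGF-beta lists, by role, with the 10 genes as triangles and called genes of the lists named. Most genes lie between -0.3 and 0.3, while SMAD9, RGMB, ID4, ATOH8 and TGFBI lie near 1.

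Genes with a pattern most like that of SMAD9 were sought by the root mean square difference between log2 values over the 6 arrays, each gene centred on its DMSO mean. The nearest were LRP4, an LDL receptor family gene (0.044), RGMB itself (0.045) and CBFA2T2, a transcriptional corepressor gene (0.045). GASK1B, a Golgi kinase-like gene (0.056), and MUC2, which encodes the main secreted mucin of the gut (0.067), followed. Their folds over DMSO lay between 1.98 and 2.07, which follows from the measure, since after centring it mainly compares the size of the change. RGMB was itself chosen on its rise in this comparison, so its place near SMAD9 is a description only. ID4 ranked 8 by this measure (0.081), while ID1 ranked 718 (0.46) and SMAD7 3475 (0.63). In all, 75 genes had a log2 change at least as large as that of SMAD9, SMAD9 included.

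Checks on the treatment and the cells used the same arrays. HES1, the repressor that Notch induces, had 307, 306 and 256 in CompE, against 804, 872 and 756 in DMSO (log2 change -1.49, limma adjusted p = 0.00198). All 8 markers of colon epithelium were above the Bacillus level in both groups, with summed intensities of 27382 to 27778 in CompE and 26480 to 27627 in DMSO (bounds over arrays). Among them MUC2 had means of 993 in CompE and 481 in DMSO, and CDX2, an intestinal transcription factor gene, 727 in CompE and 539 in DMSO, with no overlap between the groups for either. VIL1, at 2240 in CompE and 2148 in DMSO, was also higher without overlap. KRT8, at 5018 in CompE and 5337 in DMSO, was lower without overlap. The other epithelial markers overlapped between the groups. The part of these markers in the results was not tested. Of 13 markers of fibroblasts, leukocytes and endothelium, 5 were above the Bacillus level in both groups. They were PECAM1 (means of 159 in CompE and 165 in DMSO), COL1A1 (99.2 and 96.0), CD79A (88.2 and 99.2), DCN (84.1 and 75.2) and COL1A2 (52.0 and 53.1). The dimmest epithelial marker, KRT20, had 96.8 and 98.3. The dimmest of the 13, PTPRC and CDH5, were at 11.1 and 6.91 in CompE and 11.8 and 7.87 in DMSO. The ratio of 3′ to 5′ ACTB probe sets, which rises as RNA degrades, was 1.49 to 1.53 in CompE and 1.42 to 1.46 in DMSO. Its part in these results was not tested.

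**Figure D4:**
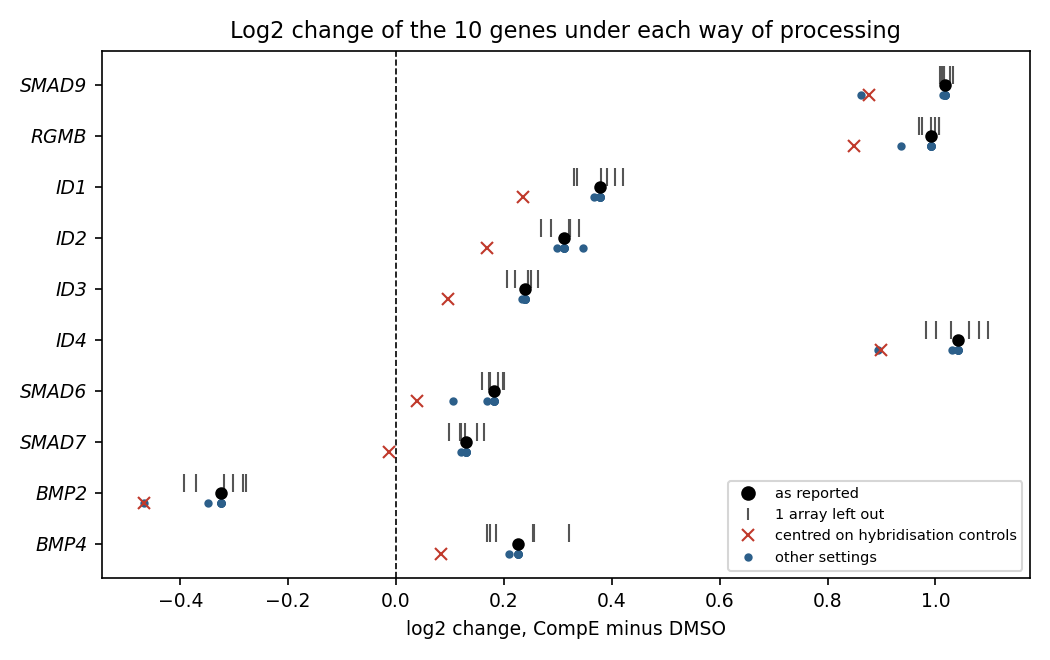
Log2 change, CompE minus DMSO, of each of the 10 genes as reported, with 1 array left out, centred on the hybridisation controls and under the other settings. SMAD9, RGMB and ID4 stay between 0.85 and 1.10 throughout, while SMAD7 crosses 0 when centred on the controls.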

How the data were processed

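RNA of 6 LS174T cultures was amplified, biotin-labelled and hybridised by the authors, who normalized the arrays with dChip, per the labels' protocols and the series design text. The deposited table gives 1 linear intensity per probe set and array. How background was handled is not stated in the labels. The authors' selection of 10896 low-variation probes is not applied in the deposited table.

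Intensities below 1 (0.768% to 0.902% of an array) were set to 1 and log2 was taken. Left out were 62 control probe sets, the lowest 40% by mean log2 (under 24.4), and probe sets with several genes (1800) or none listed (11721). Symbols came from the platform annotation, updated for 41037 of 41091 probe sets with 1 gene. The brightest of 26962 probe sets past the filter stood for each of 14308 genes. The test was limma 3.58.1 (R 4.3.3, lmFit and eBayes, two-sided, no covariate), checked on simulated data, with Benjamini-Hochberg adjustment over all genes and a call at 0.05. The number of arrays limits the precision (median standard error 0.08 on the log2 scale). The labels' treatment protocol gives triplicate cultures per condition.

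Members and lists were chosen with earlier results of these data known. Named genes were the members, up to 3 called genes per list (or that with the smallest p), the 5 nearest to SMAD9, and HES1. Alternatives covered the filter, floor, scaling, probe set rule, variance trend, replicate block and each array left out.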

Additional observations from a re-analysis of the deposited data

How the results depend on the processing

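The count of genes changed was 1021, and it depended strongly on the settings: 363 with no filter on dim probe sets, 1751 with the lowest 60% left out, 2930 over the 10896 least variable probe sets, 1892 when centred on the hybridisation controls, 2226 with an intensity trend, and 248 to 524 with 1 array left out. The genes tested differ in the first 3 and fewer arrays are used in the last. Otherwise the cause was not tested. With the replicate number as a block the count was 102. Whether the numbers pair the cultures was not established. The deviations of same-numbered arrays correlated at 0.025, -0.10 and -0.022, and not every array correlated best with its own number, which cannot decide it. Under this block the limma adjusted p was 0.0502 for ID4, 0.143 for ID1 and 0.129 for ID2, so none of these ID genes stayed called. The calls of BMPR2, ATOH8, MSX1, SKIL and CCN2 also ended under the block (limma adjusted p 0.072 to 0.149). Those of TGFBI and HES1 held (limma adjusted p = 0.0454 and 0.0289). The direction of 9 of the 10 genes held in every alternative that gave a value. SMAD7 reversed to -0.013 when centred on the hybridisation controls. The call of ID1 ended in 9 and that of ID2 in 10 of 16 alternatives (adjusted p up to 0.143 and 0.224), and that of ID4 in 1 of 15. ID3 was called in 4 alternatives, BMP2 in 3, SMAD6 in 2, and SMAD7 and BMP4 in 1 each. Of these calls, 1 each for ID3, SMAD6 and SMAD7 came from the least variable probe sets. Those probe sets were picked by a low spread within groups, the same spread that limma tests against. Their p-values are therefore too small, and these calls are no support. ID4, BMP2 and BMP4 were not among the least variable probe sets. Dim probe sets near the Bacillus level limit what can be said of BMP2, ATOH8, CCN2 and most secreted antagonists.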
